A study of Mus musculus with 28 samples.

Results

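The small leucine-rich proteoglycans are a family of secreted matrix proteins, and 10 of their genes were followed across the sorted mammary cell populations: Dcn, Bgn, Aspn, Lum, Fmod, Prelp, Kera, Omd, Ogn and Podn. The members were fixed by gene symbol, and all 10 were found among the 50600 gene IDs of the deposited count table. They were chosen by their levels in these same libraries, namely the differences between the stromal subsets and between stroma and luminal cells, so values for that difference and for stroma against luminal cells are given here as description, with no test.

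RNA was sequenced from 28 libraries, made from adult female PdgfrαCre R26mTmG mice that were either untreated (4 mice) or given estradiol plus progesterone (E+P, 3 mice). In these mice Cre is driven constitutively by the Pdgfrα gene, and it switches a ubiquitous reporter from membrane tdTomato to membrane GFP. GFP+ cells are therefore those that expressed Pdgfrα-driven Cre at some time, together with their progeny, and GFP does not report present Pdgfrα expression. Hematopoietic, erythroid and endothelial cells were gated out by CD45, Ter119 and CD31. From each mouse, GFP+ and tdTomato+ cells were then sorted from the stroma (CD49f- EpCAM-) and from the luminal epithelium (CD49f-low EpCAM+), which gave 8 groups. Adult tracing mice were 10 to 12 weeks old. Hormone pellets of 0.14 mg estradiol and 14 mg progesterone worn for 14 days are described there for wild-type mice, and hormones were given to intact mice.

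Proteins of this family consist of a short core of leucine-rich repeats, and most carry one or more sulfated sugar chains. They coat collagen fibrils, set how fibrils assemble and space, and hold growth factors such as TGF-β in the matrix. Class I members (decorin, biglycan and asporin) are related to the chondroitin and dermatan sulfate carriers, class II members (lumican, fibromodulin, PRELP, keratocan and osteomodulin) include the keratan sulfate carriers, and osteoglycin and podocan stand in classes III and V. In connective tissue these genes are typical products of fibroblasts, and decorin is widely used as a fibroblast marker.

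Most members lie in gene clusters. Dcn (10, 97479609-97518143, plus strand), Lum (97565128-97572703) and Kera (97606879-97613692) follow one another on mouse chromosome 10, with gaps of 47.0 kb and 34.2 kb. Aspn (13, 49544443-49567565), Omd (49582462-49592822) and Ogn (49608046-49624501) follow one another on chromosome 13, 14.9 kb and 15.2 kb apart, all on the plus strand within the Cenpp gene on the other strand. Prelp (1, 133910304-133921414, minus strand) and Fmod (134037254-134048277, plus strand) are 115.8 kb apart, while Bgn is on the X chromosome (73483602-73495933, plus strand) and Podn on chromosome 4 (108014791-108096445, minus strand). Positions are those of GRCm38 in GENCODE M21. Of the exon bases of Prelp, 350 (9.68%) overlap the antisense gene Gm15851, which held 105 counts over all 28 libraries against 58557 for Prelp. Aspn and Cenpp share 7 exon bases.

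The upstream sequences of the chromosome 13 trio are shown because these neighbours differed from each other in the stroma, and that of Prelp because it was the member with called hormone and subset differences in luminal cells. Each is the 250 bases before the start of the RefSeq gene on GRCm38.p6, 5′ to 3′ on the strand of the gene, and capitals mark TATAAA on either strand. RefSeq entries matched 8 of the 10 members, Podn with a pair of starts, which gave 9 windows. Aspn is at chr13:49544193-49544442, Omd at chr13:49582212-49582461, Ogn at chr13:49607765-49608014 and Prelp at chr1:133921402-133921651.
Aspn: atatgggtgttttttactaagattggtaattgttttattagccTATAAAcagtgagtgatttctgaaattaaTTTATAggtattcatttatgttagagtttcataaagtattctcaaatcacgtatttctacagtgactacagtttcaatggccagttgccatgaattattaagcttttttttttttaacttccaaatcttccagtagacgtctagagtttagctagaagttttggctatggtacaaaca
Omd: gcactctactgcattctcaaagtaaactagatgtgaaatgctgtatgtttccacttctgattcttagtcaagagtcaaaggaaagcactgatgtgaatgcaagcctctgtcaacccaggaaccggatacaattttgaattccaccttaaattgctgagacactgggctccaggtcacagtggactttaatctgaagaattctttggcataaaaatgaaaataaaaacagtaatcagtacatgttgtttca
Ogn: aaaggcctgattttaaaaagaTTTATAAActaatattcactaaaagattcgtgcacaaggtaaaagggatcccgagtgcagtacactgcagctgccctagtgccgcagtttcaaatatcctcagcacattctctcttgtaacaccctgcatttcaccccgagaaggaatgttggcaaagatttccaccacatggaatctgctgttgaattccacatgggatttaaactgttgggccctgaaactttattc
Prelp: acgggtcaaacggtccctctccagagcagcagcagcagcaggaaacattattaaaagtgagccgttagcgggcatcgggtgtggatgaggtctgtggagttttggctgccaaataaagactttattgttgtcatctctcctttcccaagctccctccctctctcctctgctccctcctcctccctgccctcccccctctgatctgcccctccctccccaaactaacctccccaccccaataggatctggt
TATAAA was present, on both strands, in the Aspn window (207 and 178 bases before the start) and in that of Ogn (227 and 229 bases before, where the strands' matches overlap), and 12.37% of 32851 promoters of this length hold it. The letters were not in the Omd or Prelp windows. The palindromic estrogen response element (GGTCA, any 3 bases, TGACC) was in 0 of 9 member windows (0.0639% of all promoters), and TGTTCT on either strand, a half-site of the progesterone receptor, was in 1, that of Bgn (16.08% of all).

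Library totals ranged from 8623383 to 24583803 counts, so that 3 counts, the limit that a count of 0 allows, correspond to 0.122 to 0.348 CPM (counts relative to the library total). Libraries came from 2 ng of RNA without molecular identifiers, and such limits cover counting error only. Levels are CPM after TMM scaling, and levels of different genes are compared per kb of exon. The 12 fibroblast markers summed to 29248-60496 CPM in GFP+ stroma and 2821-7222 CPM in tdTomato+ stroma. In tdTomato+ stroma, 9 pericyte and smooth muscle markers summed to 7085-10204 CPM, against 144-316 CPM in GFP+ stroma. The 8 skeletal muscle fibre markers summed to 2397-22002 CPM there, against 7.65-16.4 CPM, and 3 satellite cell markers to 184-306 CPM, against 0.0-0.243 CPM. All of these markers were detected in tdTomato+ stroma. The 8 luminal markers summed to 5700-7734 CPM in untreated GFP+ luminal cells, 4587-5886 CPM after E+P and 7366-7911 CPM over both tdTomato+ luminal groups. They also summed to 20.1-505 CPM in untreated tdTomato+ stroma. One library, untreated tdTomato+ luminal replicate 3, held more stromal transcripts than the other 3 of its group, with a fibroblast sum of 81.5 CPM against a lowest value of 6.87 CPM.

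In untreated GFP+ stroma, Dcn was the most abundant member at 1072 ± 91.1 CPM per kb (SD, n = 4), followed by Lum, a collagen fibril regulator best known from cornea, at 405 ± 58.7 CPM per kb. Ogn followed at 181 ± 28.5, Bgn at 119 ± 21.1, Prelp at 83.8 ± 11.2, Aspn at 34.9 ± 7.64, Podn at 29.5 ± 3.94 and Omd at 8.05 ± 2.28 CPM per kb. Fmod (3.79 ± 1.42) and Kera (3.17 ± 2.36) were lowest, and their libraries overlapped. Neighbours in this order whose ranges overlapped were also Ogn and Bgn, Aspn and Podn, and Omd and Fmod, although Ogn exceeded Bgn within each of the 4 libraries. The 10 genes together took 0.784 ± 0.0411% of all counts in untreated GFP+ stroma and 0.770 ± 0.0328% (n = 3) after E+P.

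**Figure D1:**
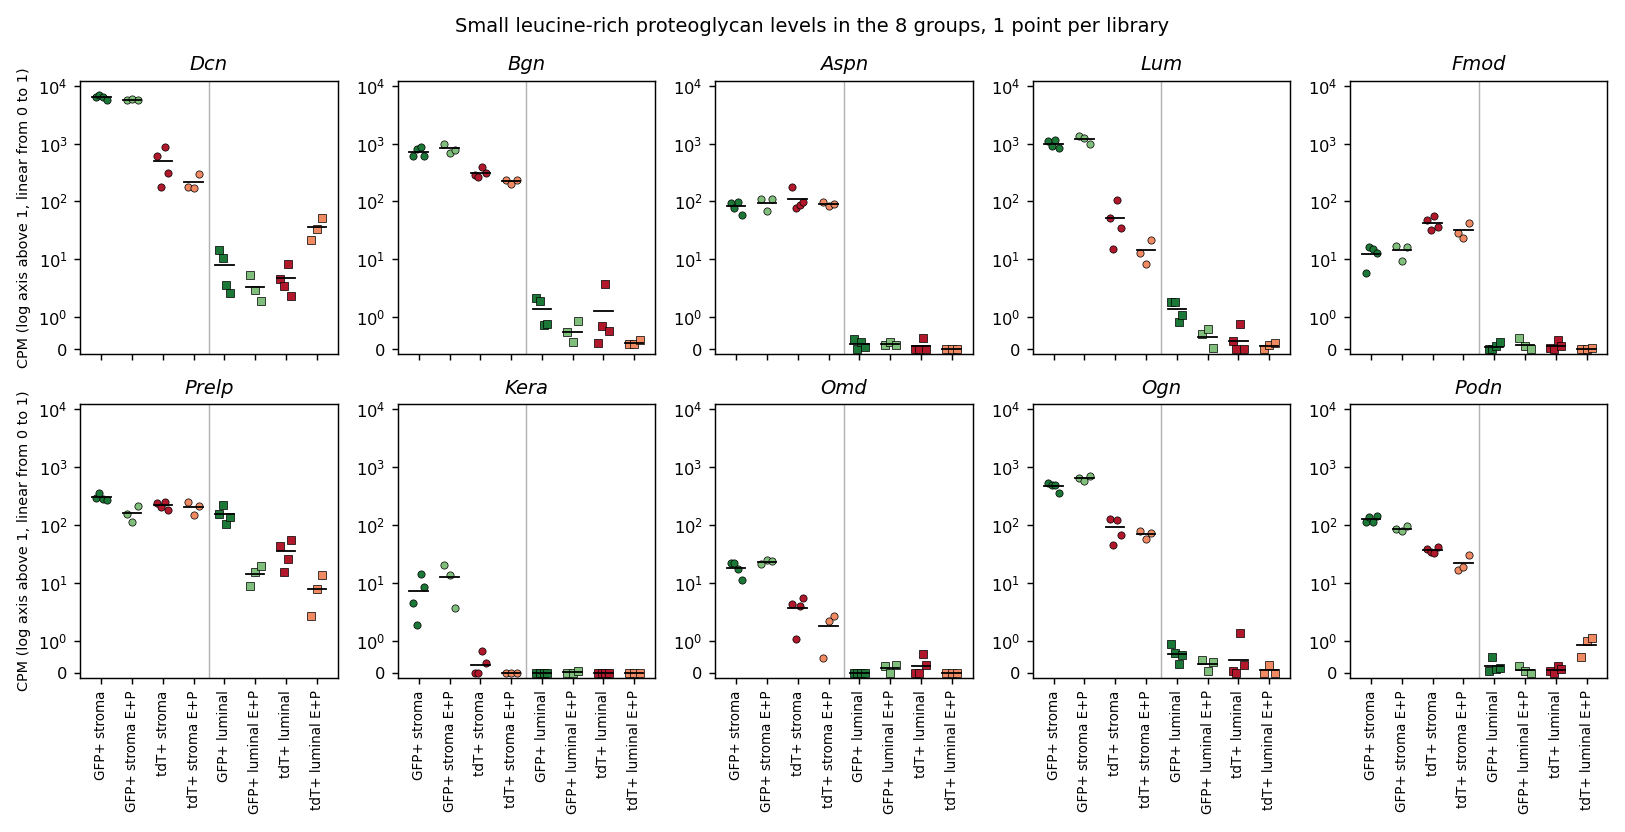
Level of each member (CPM, log axis above 1 and linear from 0 to 1) in each of the 28 libraries, 1 point per library, with a line at the group mean. Groups run from GFP+ and tdTomato+ stroma (circles) to GFP+ and tdTomato+ luminal cells (squares), each untreated and then E+P, and Dcn spans from 5543-6812 CPM in GFP+ stroma to 1.87-51.4 CPM in luminal cells.

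tdTomato+ stroma held less of the family and a different mixture of it. The 10 genes took 0.127 ± 0.0424% of counts in untreated mice (n = 4) and 0.0796 ± 0.0157% after E+P (n = 3). Dcn made up 55.3 ± 1.87% of the summed CPM per kb of the family in untreated GFP+ stroma and 24.0 ± 8.27% in untreated tdTomato+ stroma, and Lum 20.8 ± 1.97% and 6.04 ± 2.96%. In contrast, Prelp, which binds collagens and the basement membrane proteoglycan perlecan, made up 4.33 ± 0.462% and 19.9 ± 5.36%, Bgn 6.13 ± 0.773% and 16.9 ± 4.22%, and Aspn 1.78 ± 0.278% and 14.9 ± 4.60%. In untreated tdTomato+ stroma, the ranges of each neighbouring pair from Dcn (83.9 ± 52.7 CPM per kb) down to Podn (8.63 ± 0.930 CPM per kb) overlapped. Ranks next to each other were therefore not clear, and some members further apart overlapped too. Dcn (30.2-147 CPM per kb) overlapped Ogn (17.6-50.2) and Lum (6.27-44.0), while other members were separate. The lowest libraries of Prelp (50.9), Bgn (44.0), Aspn (32.3) and Dcn (30.2 CPM per kb) lay above the highest of Fmod (17.2) and Podn (9.67). In tdTomato+ stroma after E+P, Prelp had the highest mean at 55.9 ± 13.4 CPM per kb, and its range (41.2-67.5) overlapped that of Dcn (29.1-50.4).

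**Figure D2:**
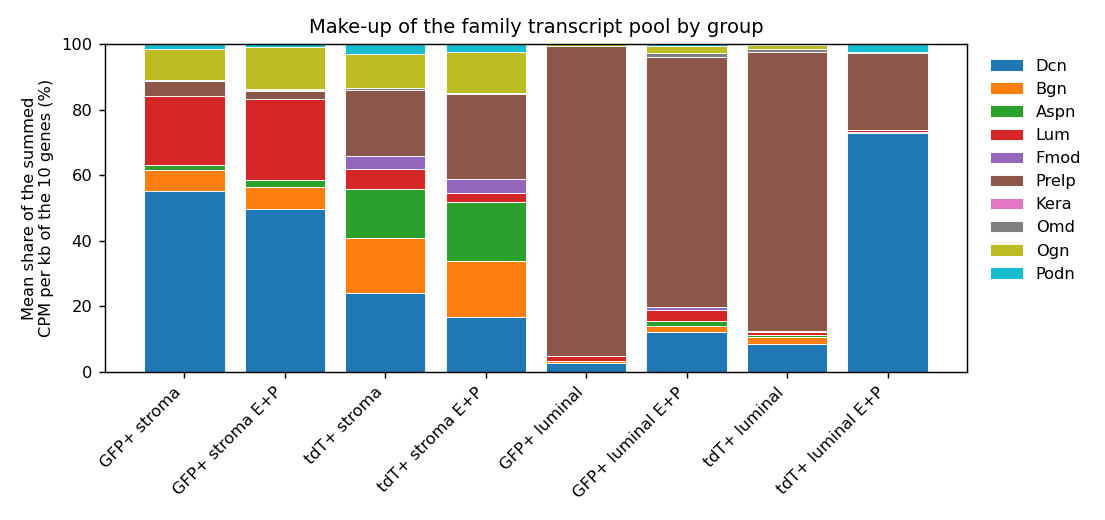
Mean share of each member (%) in the summed CPM per kb of the 10 genes, by group, as stacked bars that start at 0 and end at 100. Dcn and Lum fill most of the GFP+ stromal bars, tdTomato+ stroma is spread over Dcn, Prelp, Bgn, Aspn and Ogn, and luminal bars are mostly Prelp except that of tdTomato+ luminal cells after E+P, where Dcn makes up 72.8%.

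Between the stromal subsets, the libraries of 7 members were all higher in GFP+ cells, those of Fmod were all lower, and those of Aspn and Prelp overlapped. Of 17783 genes measured in stroma, 13.9% were separated in this way with GFP+ higher and 12.6% with GFP+ lower. Over the 10 members the median log2 difference was 2.31, against -0.01 over all genes, and it stayed at 2.31 with Kera set to its lower bound. Lower levels in a sorted population may mean fewer cells of a type or less RNA in each, which bulk samples cannot tell apart, and the pericyte and muscle markers above moved with this difference. Their part in it was not tested.

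Members of the chromosome 10 cluster showed the widest differences. Dcn, which wraps type I collagen fibrils and binds TGF-β, was at 6259, 6812, 6427 and 5543 CPM in the untreated GFP+ stroma of mice 1 to 4, and at 5543, 5928 and 5713 CPM after E+P. In tdTomato+ stroma it was at 621, 176, 857 and 305 CPM, and at 179, 170 and 294 CPM after E+P. The lowest GFP+ library thus lay well above the highest tdTomato+ library, and the log2 difference was 4.20 (SE 0.32). Lum was at 827-1362 CPM over the 7 GFP+ libraries and at 8.15-108 CPM over the 7 tdTomato+ libraries, a log2 difference of 5.30 (SE 0.43). Kera, the cornea-associated keratocan, was at 1.86-20.4 CPM in GFP+ stroma. It was at 0 counts in 5 of 7 tdTomato+ libraries, with 0.664 and 0.291 CPM in the other two, both untreated. After E+P, where tdTomato+ stroma had 0 counts in 3 of 3 libraries, Kera was at least 77.2-fold higher in GFP+ stroma, taking 3 counts in each of those libraries as the floor. Epyc, the next family gene along chromosome 10, was not a member but was listed among the related genes. It averaged 3.86 ± 1.98 CPM in GFP+ and 0.144 ± 0.220 CPM in tdTomato+ stroma (n = 7 each).

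The neighbours on chromosome 13 did not share 1 pattern. Ogn, also called mimecan and found around collagen fibrils, was at 540 ± 112 CPM in GFP+ and 81.4 ± 31.4 CPM in tdTomato+ stroma (n = 7 each), a log2 difference of 2.77 (SE 0.21). Omd, first known from bone matrix, was at 11.2-24.9 CPM against 0.459-5.44 CPM, a log2 difference of 2.98 (SE 0.35). Aspn, a TGF-β-binding relative of decorin, lies just before both, and its libraries overlapped at 58.7-109 CPM in GFP+ and 76.1-178 CPM in tdTomato+ stroma (log2 -0.19, SE 0.19). GFP+ cells had the higher Aspn level in 4 of 7 mice.

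Bgn, the X-linked relative of decorin, was at 619-999 CPM in GFP+ and 197-396 CPM in tdTomato+ stroma (log2 1.53, SE 0.12). Podn, a collagen-binding member first described in the kidney glomerulus, was at 79.8-142 CPM and 16.9-41.3 CPM (log2 1.86, SE 0.13). Fmod, the fibromodulin of tendon, ran the other way, at 5.83-17.3 CPM in GFP+ and 23.5-56.9 CPM in tdTomato+ stroma (log2 -1.48, SE 0.23), and it was lower in GFP+ cells of 7 of 7 mice. Prelp lay at 111-362 CPM and 149-247 CPM, with a log2 difference of 0.05 (SE 0.14). It was higher in GFP+ cells of 4 mice, which were the 4 untreated ones (log2 0.21 to 0.82). In the 3 E+P mice it was lower, at -0.68, -0.42 and a nearly level -0.012. The E+P responses of the subsets, compared below, did not pass for Prelp.

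**Figure D3:**
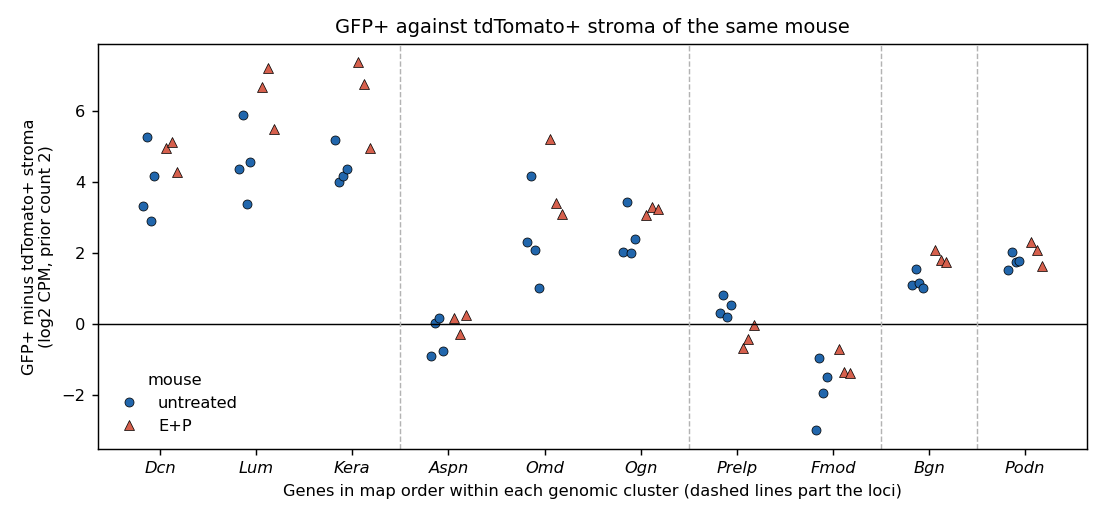
Difference in log2 CPM (prior count of 2) between GFP+ and tdTomato+ stroma of the same mouse, 1 point per mouse, for untreated (circles) and E+P (triangles) mice. Genes stand in map order, with dashed lines between the loci on chromosomes 10, 13 and 1, the X chromosome and chromosome 4, and the points of Fmod lie below 0 while those of Dcn, Lum, Kera, Omd, Ogn, Bgn and Podn lie above; for Kera the height depends on the prior count.

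The genes whose profile over the 14 stromal libraries lay nearest to each member were found by the root mean square difference of centred log2 CPM over 8715 genes. Dcn lay nearest to Fst (0.268), Steap3 (0.274) and Pdgfra (0.302), Lum to Mmp2 (0.344), Serpinf1 and Ace, and Ogn to C1ra (0.245), Nid1 and Dsel. Kera was nearest to Lamc3 (0.790), Frem1 and Lum (0.903), and its distances were larger than those of the other members, with few counts behind them. Omd lay nearest to Fmo1, Reck and Ctsh, Podn to Dapk1, Selenop and Cd302, and Bgn to Wls (0.170), Rab3d and Serpinh1. Among the members without a higher GFP+ level, Aspn lay nearest to Hsp90aa1, Cops6 and Casp8, Fmod to Snhg15, Impdh2 and Mmp17, and Prelp to Il13ra1, Irak3 and Mtmr14. Between members, the closest pair was Bgn and Podn (0.445) and the most distant Fmod and Kera (3.56). These are descriptions of libraries that fall into 2 subsets, and share sort and depth.

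Genes that build, modify, cleave or are bound by these proteoglycans were taken from 9 lists of 96 genes, of which 86 were tested in stroma. The lists were written with earlier results of these data known, so their counts between the stromal subsets are a description. In GFP+ against tdTomato+ stroma, 58 of the 86 were higher, 9 were lower and 19 did not pass an adjusted p of 0.01 in the quasi-likelihood test of edgeR, where 20.6% of all genes were higher and 21.3% lower. Of 15 tested genes for chondroitin and dermatan sulfate chains, 12 were higher and 1 lower. Examples are Dsel, related to the epimerase that makes dermatan sulfate (log2 3.02, SE 0.16), the uronyl sulfotransferase Ust (3.16, SE 0.29) and the 4-O-sulfotransferase Chst12 (2.72, SE 0.14). For the linker on which chains are built, 4 of 7 were higher, among them Xylt1, which adds the first xylose (1.30, SE 0.14). For keratan sulfate it was 2 of 4, including B4galt1 (0.84, SE 0.10).

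For the sulfate supply, 3 of 4 were higher, with Papss2, which makes the sulfate donor, at 45.4 ± 8.24 CPM in GFP+ and 5.70 ± 3.50 CPM in tdTomato+ stroma (log2 3.04, SE 0.31). Of 18 collagen and cross-linking genes 16 were higher and 0 lower, such as Col1a2 (4.08, SE 0.26), Col14a1 (4.27, SE 0.41) and the lysyl oxidase relative Loxl4 (4.12, SE 0.30). Other small leucine-rich repeat genes gave 3 of 5 higher, Ecm2 (0.51, SE 0.09), Tsku (0.79, SE 0.20) and Epyc (4.83, SE 0.74). Other secreted proteoglycans divided into 4 higher, among them Vcan (3.82, SE 0.35) and Prg4 (4.41, SE 0.55), and 3 lower of 10, among them serglycin, Srgn (-1.86, SE 0.32).

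Growth factors and receptors bound by the family gave 7 higher and 4 lower of 13. Egfr, a decorin-binding receptor (3.05, SE 0.12), Tlr2, a receptor for biglycan (3.14, SE 0.27), and the endocytic receptor Lrp1 (2.44, SE 0.10) were higher in GFP+ stroma. Tgfb1 (-0.97, SE 0.21), Tgfb3 (-1.10, SE 0.15) and Igf1r (-0.52, SE 0.10) were lower. Of 10 proteases of core proteins 7 were higher, led by Mmp3 (5.37, SE 0.74), Mmp2 (4.92, SE 0.45) and the aggrecanase Adamts5 (3.67, SE 0.29), and 1 was lower. That 1 was the other aggrecanase of the list, Adamts4, at 151 ± 39.5 CPM in GFP+ and 2795 ± 708 CPM in tdTomato+ stroma (log2 -4.21, SE 0.23, adjusted p = 1.02e-09).

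Stroma was set against the luminal epithelium to place the family between tissue compartments. Over the 14 stromal and 14 luminal libraries, 7 members had no overlap and were higher in stroma (Dcn, Bgn, Aspn, Lum, Fmod, Ogn and Podn), where 8.51% of 19569 genes were. Leaving out Kera, for which the fit gave no usable estimate, Aspn differed most (log2 10.50, SE 0.31), with 24 counts in all luminal libraries together. Omd and Kera were near 0 in luminal cells, with 23 counts and 1 count over 14 libraries, and overlapped the lowest tdTomato+ stromal libraries. Prelp was the exception, at 111-362 CPM in stroma and 2.64-219 CPM in luminal cells. In untreated GFP+ luminal cells Prelp made up 94.5 ± 2.28% of the family per kb, at 42.4 ± 13.6 CPM per kb against 1.34 ± 0.991 for Dcn (n = 4).

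Among luminal cells of untreated and E+P mice, only 5 members (Dcn, Bgn, Lum, Prelp and Ogn) had counts enough to be tested. Between GFP+ and tdTomato+ luminal cells 1 of these 5 was called, where 34.7% of all genes were. Prelp was at 155, 219, 102 and 137 CPM in untreated GFP+ luminal cells and at 43.2, 15.5, 25.9 and 55.1 CPM in tdTomato+ ones. After E+P it was at 8.90, 15.1 and 19.3 CPM, and at 2.64, 7.78 and 13.4 CPM. All untreated GFP+ libraries lay above all untreated tdTomato+ ones, a separation not counted over all genes, while the E+P libraries overlapped. The log2 difference over both treatments was 1.46 (SE 0.36, adjusted p = 0.00515, edgeR quasi-likelihood test). Without untreated replicate 1, 2 or 3, or E+P replicate 2, its adjusted p was 0.0133, 0.0154, 0.0119 and 0.0302, so the call rests on single mice. For Dcn the log2 difference was -1.36 (SE 0.44), which did not pass (adjusted p = 0.0213).

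The response to E+P was tested in each sorted subset. In GFP+ stroma, 0 of 10 members were called, where 0.231% of all genes were. With no adjustment 2 had p under 0.05 (8.04% of all genes), and DESeq2 called 1 and limma-voom 0. The 2 were Prelp and Podn. Prelp was at 296, 362, 285 and 270 CPM in untreated and 152, 111 and 212 CPM in E+P mice, with no overlap (log2 -0.92, SE 0.20, adjusted p = 0.0456). Podn was at 112, 139, 111 and 142 CPM and at 84.6, 79.8 and 93.8 CPM, again with no overlap (-0.54, SE 0.18, adjusted p = 0.263). Ogn was the 1 member with all E+P libraries higher, at 526, 489, 485 and 358 CPM against 650, 577 and 692 CPM (0.47, SE 0.27, adjusted p = 0.767). Such separation of the libraries was found for 13.0% of all genes. Dcn differed by -0.12 (SE 0.40), and its values in both conditions are listed above.

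In tdTomato+ stroma, 0 of 10 members were called after E+P, where 0.124% of all genes were. At an unadjusted p under 0.05 there were 5 (15.6% of all genes), Kera with its 0 counts after E+P among them, and DESeq2 called 1 and limma-voom 0. The log2 differences of all 10 were below 0, with a median of -0.63 against -0.03 over all genes, and without Kera, which was at 0 counts in all E+P libraries, the median of the other 9 was -0.50. Podn was at 39.0, 34.1, 32.9 and 41.3 CPM in untreated and 16.9, 18.8 and 30.0 CPM in E+P mice (log2 -0.75, SE 0.18, adjusted p = 0.059). Lum was at 52.5, 15.3, 108 and 34.8 CPM and at 13.1, 8.15 and 21.7 CPM, which overlapped (-1.88, SE 0.54, adjusted p = 0.123). Dcn gave -1.19 (SE 0.41, adjusted p = 0.18) and Bgn, with libraries apart, -0.50 (SE 0.17, adjusted p = 0.16). Separate libraries were seen for Bgn and Podn, and for 10.7% of all genes. In the same libraries the skeletal muscle sum went from 2397-12409 to 6636-22002 CPM and the fibroblast sum from 3406-7222 to 2821-3367 CPM, and their part in these values was not tested.

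The E+P responses of the 2 stromal subsets were compared directly by the interaction term. None of the 10 members passed (0 called, 0.045% of all genes, DESeq2 and limma-voom 0 each), and 6, again with Kera, had an unadjusted p under 0.05 (10.4% of all genes). With the mouse as a block, 0 members and 13 genes in all were called, against 8 genes without it. Lum had a difference of 2.15 (SE 0.72, adjusted p = 0.315), Dcn of 1.07 (SE 0.56, adjusted p = 0.557) and Bgn of 0.69 (SE 0.24, adjusted p = 0.309). Prelp was the member with a negative value, at -0.82 (SE 0.28, adjusted p = 0.299).

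Of the 86 related genes, 0 were called after E+P in GFP+ stroma, where 0.231% of all genes were, while DESeq2 called 3 and limma-voom 0. With no adjustment, 21 of the 86 had p under 0.05 (8.04% of all genes). In tdTomato+ stroma 1 was called, where 0.124% of all genes were, and 26 had an unadjusted p under 0.05 (15.6% of all genes). The called gene was Loxl4, which fell from 4.56 ± 2.84 to 0.515 ± 0.281 CPM (log2 -3.17, SE 0.46, adjusted p = 0.00552).

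**Figure D4:**
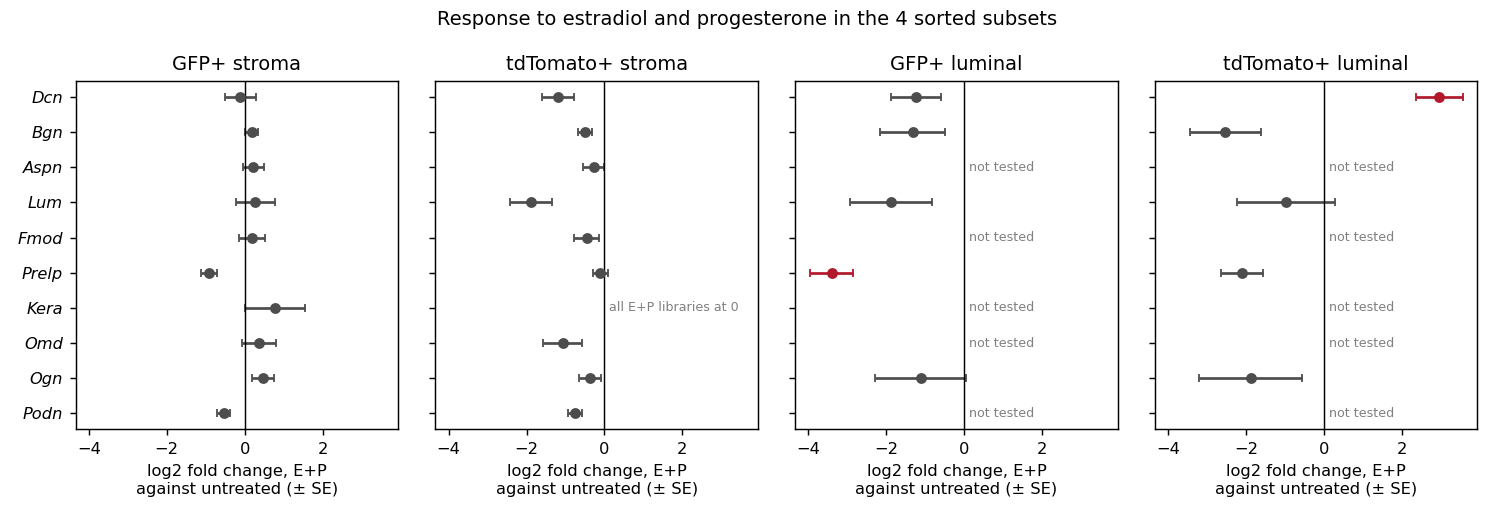
Log2 fold change of the tested members after E+P against untreated, with its standard error, in the 4 sorted subsets (4 untreated and 3 E+P libraries each). Members with too few luminal counts are marked as not tested. For Kera in tdTomato+ stroma the 0 counts in all E+P libraries are marked in place of a point. Red points passed an adjusted p of 0.01 in the edgeR quasi-likelihood test, which are Prelp in GFP+ luminal cells (-3.41) and Dcn in tdTomato+ luminal cells (2.96).

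In GFP+ luminal cells, E+P was followed by a lower level of Prelp. The values of 102-219 CPM in untreated and 8.90-19.3 CPM in E+P mice, listed above for each mouse, did not overlap. The log2 fold change was -3.41 (SE 0.56, adjusted p = 0.0025, edgeR quasi-likelihood test), and it was the 1 call among 5 members tested, where 5.96% of all genes were called. The adjusted p was 0.0106 without E+P replicate 1 and 0.0266 without E+P replicate 2. Lum, at 0.857-1.84 CPM in untreated and 0.0416-0.646 CPM in E+P mice, also had no overlap but was not called (-1.87, SE 1.05, adjusted p = 0.254), and libraries of 27.6% of all genes were apart here. As Prelp made up most of the family in these cells, the share of all counts taken by the 10 genes went from 0.0196 ± 0.00609% to 0.00216 ± 0.000331%. In tdTomato+ luminal cells Prelp also lay lower in all E+P libraries (-2.10, SE 0.54), without passing (adjusted p = 0.0131). The GFP+ and tdTomato+ luminal responses of Prelp differed by -1.31 (SE 0.71, adjusted p = 0.312), a comparison added after the values had been seen.

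In tdTomato+ luminal cells, Dcn was higher after E+P. It was at 4.59, 3.53, 8.38 and 2.37 CPM in the untreated and at 21.6, 33.6 and 51.4 CPM in the E+P libraries, or 58-116 counts against 270-1081 counts, with no overlap. The log2 fold change was 2.96 (SE 0.61, adjusted p = 0.00387, edgeR quasi-likelihood test), the 1 call among 5 members tested, where 14.1% of all genes were called. It was 3.37 (adjusted p = 0.00363) without untreated replicate 3, the library with more stromal transcripts. The adjusted p was 0.0179 without E+P replicate 2, 0.0206 without E+P replicate 3 and 0.0167 without untreated replicate 2. Podn, at 0.0-0.217 CPM in untreated and 0.481-1.09 CPM (6-23 counts) in E+P libraries, was too low for the luminal test, and its groups did not overlap either. Separate libraries were seen for 35.9% of all genes.

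These were still far below the stromal levels, Dcn in tdTomato+ luminal cells after E+P reaching 35.5 ± 15.0 CPM against 214 ± 69.6 CPM in tdTomato+ stroma of the same mice. In GFP+ luminal cells Dcn was at 14.7, 10.6, 3.54 and 2.59 CPM in untreated and 5.30, 2.91 and 1.87 CPM in E+P mice, and did not pass (-1.24, SE 0.64, adjusted p = 0.217). The 2 luminal responses of Dcn differed by -4.20 (SE 0.89, adjusted p = 0.0153), GFP+ minus tdTomato+, which misses 0.01. Of the 5 members, 0 were called in that comparison (2.27% of all genes), 1 had an unadjusted p under 0.05 (22.0% of all genes), and DESeq2 and limma-voom called 1 each. This test, and the tests of stroma against luminal cells that follow, were added after the values had been seen, and the latter are given for the 5 members with enough luminal counts. In tdTomato+ cells, the E+P response of stroma minus that of luminal cells was -4.13 for Dcn (SE 0.77, adjusted p = 0.00132). It was the 1 called of 5 members, where 5.71% of the genes that passed the filter in both stroma and luminal cells were called. The adjusted p was 0.0102, 0.0223 and 0.014 without E+P mouse 1, 2 and 3. Among GFP+ cells 0 of 5 were called (1.2% of such genes), 2 had an unadjusted p under 0.05 (17.9% of them) and other tools called more (DESeq2 and limma-voom 1 each). Prelp was nearest at 2.47 (SE 0.57, adjusted p = 0.0183).

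Fibroblast markers were compared in the same tdTomato+ luminal libraries. The 12 markers summed to 6.87-81.5 CPM in untreated and 6.80-8.80 CPM in E+P libraries, of which Pi16 was at 0 in all E+P libraries. Of the 9 markers tested, 0 were higher and 1, Dpp4, was lower. Pdgfra differed by 0.29 (adjusted p = 0.608). Col1a1 was at 2.68, 0.669, 16.1 and 0.465 CPM in untreated and 0.721, 0.94 and 0.428 CPM in E+P libraries. Col6a1 and Col6a2, chosen here after their values were seen, rose with Dcn. Col6a1 went from 4.58 ± 3.24 to 458 ± 205 CPM (log2 6.68, SE 0.65, adjusted p = 2.99e-05) and Col6a2 from 2.55 ± 3.60 to 186 ± 123 CPM (log2 6.32, SE 0.93, adjusted p = 0.000526). Col6a3, the other collagen VI chain listed, was at 117 ± 122 CPM before and 153 ± 19.0 CPM after E+P and was not called (log2 0.42, SE 0.75, adjusted p = 0.721). These 2 were the only calls among the 15 collagen and cross-linking genes tested, whose median was -1.42, against -0.05 over all genes. The 4 basal cell markers Krt14, Krt5, Krt17 and Trp63 summed to 4.70-8.96 CPM in untreated and 31.6-50.2 CPM in E+P libraries of tdTomato+ luminal cells, and their part in the Dcn value was not tested. In GFP+ luminal cells the same sum was 13.0-19.4 CPM in untreated and 28.5-43.6 CPM in E+P libraries.

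**Figure D5:**
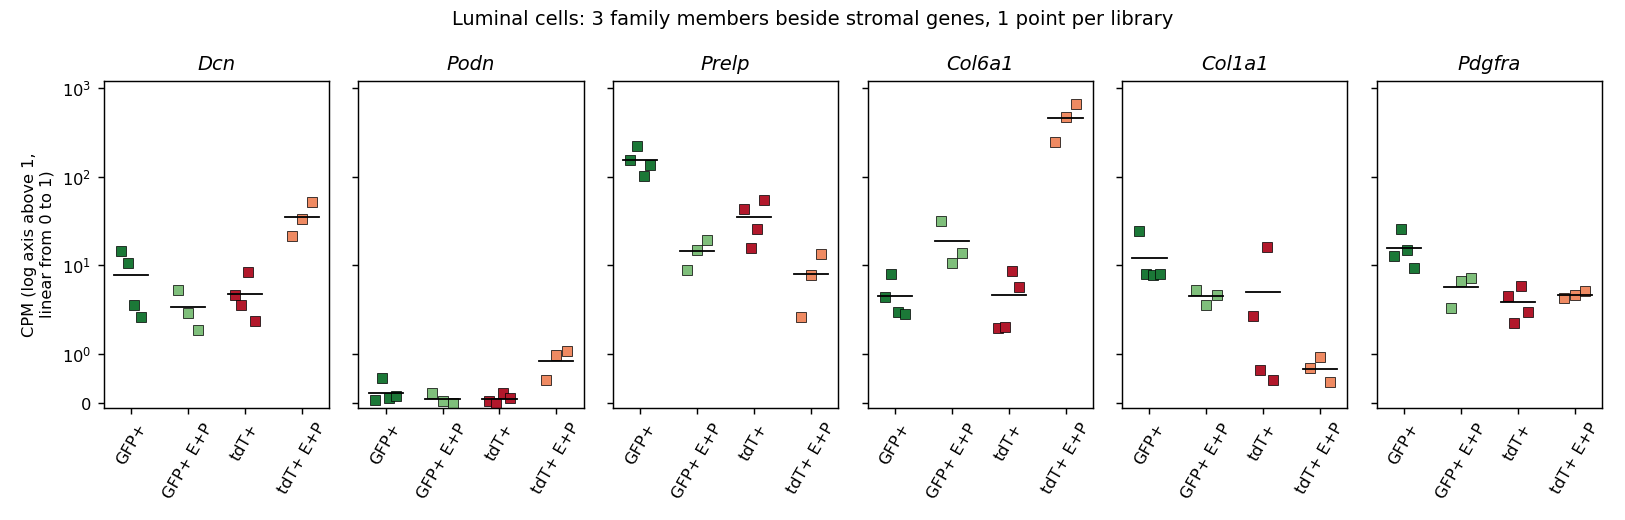
Level (CPM, log axis above 1 and linear from 0 to 1) of Dcn, Podn, Prelp, Col6a1, Col1a1 and Pdgfra in luminal cells, 1 point per library with a line at the group mean, for GFP+ and tdTomato+ cells of untreated and E+P mice. In the tdTomato+ E+P libraries Dcn (21.6-51.4 CPM) and Col6a1 (248-658 CPM) stand above the untreated ones, while Pdgfra (4.25-5.09 CPM) lies within their range and Col1a1 (0.428-0.94 CPM) near or under its lower end.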

How the data were processed

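The authors deposited a table of raw counts for 28 RNA-seq libraries, without normalization, and it was used as it stands. Per the labels and methods, 2 ng of RNA (RIN 1 to 10) went into a stranded pico-input kit with 15 PCR cycles, and paired-end 75-base reads were aligned with STAR 2.5.2a to GRCm38.p5 with a GENCODE release not given in the sources used here. Symbols, exon lengths and positions were taken from GENCODE M21, which held 50376 of 50600 gene IDs. Of the members, Omd and Ogn carry another ID version there. Groups came from the sample titles. Titles put the GFP+ and tdTomato+ libraries of one number and treatment in the same mouse, and their deviations from group means correlated at a mean of 0.0496 in stroma and 0.157 in luminal cells.

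Counts were scaled by TMM, filtered with filterByExpr and tested with the two-sided quasi-likelihood F-test of edgeR 4.0.16 (R 4.3.3, robust), in a fit of the 14 stromal, 14 luminal or all 28 libraries. P values were adjusted by Benjamini and Hochberg's method across every gene of the fit, and a gene was called under 0.01. Standard errors are the absolute log2 fold change divided by the square root of F. DESeq2 1.42.0, limma 3.58.1 (voom), other scalings, no filter, a replicate block (mouse, or labelled number), a threshold of 0.05 and leaving out each mouse were alternatives. The code was tested on simulated data. Log2 CPM of single libraries have a prior count of 2.

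Named are all 10 members, the 3 related genes per list and direction with the widest called difference between stromal subsets and at least 10 CPM in 1 of them, the 3 likest genes, and others where said. The members and lists were chosen with earlier results of these data known.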

Additional observations from a re-analysis of the deposited data

Results flagged for a closer look

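In 35 groups of 4 libraries examined, 3 held 1 library far from the other 3, and chance alone sets apart about 1 in 20 such groups. All 3 were in untreated tdTomato+ luminal cells and came from replicate 3, with Bgn at 3.69 CPM, Aspn at 0.361 CPM and Ogn at 1.37 CPM. This is the library whose fibroblast markers summed to 81.5 CPM. The E+P response of tdTomato+ stroma differed from that of tdTomato+ luminal cells for Dcn (log2 -4.13, adjusted p = 0.00132) by the interaction term of edgeR. Dcn was higher after E+P in 3 of 3 luminal libraries than in any untreated one. This comparison was added after the values had been seen. Its adjusted p was 0.0102, 0.0223 and 0.014 without E+P mouse 1, 2 and 3.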

How the results depend on the processing

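The median log2 difference of the members between stromal subsets (2.31) and between stroma and luminal cells (8.15) kept their direction under each alternative run (2.23 to 2.38 and 7.87 to 8.42), and the number of related genes called between stromal subsets, 67, ranged from 64 to 73. The median between stroma and luminal cells includes Kera, for which that fit gave no usable estimate. Counts of members called moved as follows. In GFP+ stroma after E+P, 0 became 1 with DESeq2, without the low-count filter and at 0.05. In tdTomato+ stroma 0 became 1 with DESeq2 and 4 without the filter, and the interaction went from 0 to 3 without the filter. Without the filter, calls over all genes went from 41 to 459 in GFP+ stroma and from 22 to 840 in tdTomato+ stroma. For the stromal interaction they went from 8 to 506. In tdTomato+ luminal cells 1 became 2 with DESeq2, library size only and 0.05, and 0 without the filter. GFP+ against tdTomato+ luminal cells went from 1 to 2 with DESeq2, limma-voom and 0.05, and to 0 without the filter. The luminal interaction went from 0 to 1 with DESeq2, limma-voom and 0.05, and stroma minus luminal response in GFP+ cells from 0 to 1 with these and with only the groups compared. In tdTomato+ cells that response went from 1 to 2 with DESeq2 and at 0.05. Related genes called after E+P in GFP+ stroma went from 0 to 3 with DESeq2, 8 without the filter, 1 with only the groups compared and 2 at 0.05. The cause was not tested. With single mice left out, the counts ranged from 0 to 1 for E+P in both luminal subsets, for GFP+ against tdTomato+ luminal cells and for stroma minus luminal response in tdTomato+ cells, and from 0 to 2 for related genes in GFP+ stroma.

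Signs of values that were not called turned for Fmod in GFP+ stroma (-0.061 to 0.41 over single mice left out, lowest without untreated replicate 1), for Aspn (-0.44 to 0.046, highest without untreated replicate 1) and Prelp (-0.27 to 0.068, highest without E+P replicate 2) in tdTomato+ stroma, and for Lum in tdTomato+ luminal cells (0.40 with limma-voom, -1.54 to 0.47 with single mice left out, highest without untreated replicate 3). With the mouse or the labelled number as a replicate block, 0 of 50 member values changed call. Untreated and E+P mice of the same number are different mice, with mean correlations of -0.0436 to 0.0129. Genes called in all moved widely, from 41 to between 16 and 459 for E+P in GFP+ stroma, 22 to between 0 and 840 in tdTomato+ stroma, 985 to between 169 and 2475 in GFP+ luminal and 2327 to between 1140 and 4444 in tdTomato+ luminal cells, 8 to between 1 and 506 for the stromal interaction, 376 to between 33 and 1089 for the luminal one, and 180 to between 8 and 648 (GFP+) and 910 to between 353 and 2087 (tdTomato+) for stroma minus luminal response. Scaling by library size only shifted the median of all genes by -0.22 for E+P in tdTomato+ luminal cells and by -0.11 in GFP+ luminal cells. The shift was 0.14 for GFP+ against tdTomato+ luminal cells and 0.12 for the luminal interaction. For stroma minus luminal response it was 0.11 in GFP+ and 0.15 in tdTomato+ cells. With 3 E+P mice, and 24 counts or fewer over all luminal libraries for Aspn, Fmod, Omd and Kera, differences of those members were not detectable at this depth.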

Other observations

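Of 72 related genes tested in tdTomato+ luminal cells, 8 rose and 4 fell after E+P, a share near the 14.1% of all genes called there. Besides Col6a1 and Col6a2, those that rose were the proteoglycan core gene Srgn, from 0.466 ± 0.336 to 15.4 ± 4.18 CPM (log2 5.08, SE 0.70, adjusted p = 0.000243), Tsku, another small leucine-rich repeat proteoglycan, from 1.37 ± 0.510 to 12.4 ± 3.35 CPM (log2 3.19, SE 0.48), the chondroitin synthase Chsy1 (log2 2.11, SE 0.33), the dermatan sulfate epimerase Dse (2.12, SE 0.46), Tgfb1 (1.14, SE 0.21) and Tgfb3 (1.30, SE 0.22). Those that fell were Papss2 (-2.35, SE 0.46), Lrp1 (-2.10, SE 0.35), the HGF receptor Met (-1.47, SE 0.21) and the xylose phosphatase Pxylp1 (-1.23, SE 0.24). In GFP+ luminal cells, where 5.96% of all genes were called, 1 of 72 rose, Chadl, from 1.82 ± 0.530 to 6.96 ± 1.11 CPM (log2 1.92, SE 0.37), and 1 fell, the membrane protease Mmp14 (-0.93, SE 0.16). The values are from the edgeR quasi-likelihood test, with adjusted p under 0.01 for each gene named, and genes outside the naming rule (Chsy1, Dse, Met, Chadl and Mmp14) were chosen after their values were seen.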
